A study of Arabidopsis thaliana with 4 samples.

Results

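PYK10 is an abundant beta-glucosidase of the ER body, a rod-shaped compartment that the endoplasmic reticulum forms in seedlings and roots of Arabidopsis and its relatives. When cells are damaged, PYK10 meets proteins of the cytosol and forms large aggregates with them. Several jacalin-related lectins (JALs), which bind carbohydrates, are found in these aggregates, together with lipase-like proteins of the GDSL family. PYK10 can act on indole glucosinolates, which are defence compounds released from their sugar when tissue is broken. NAI1, a transcription factor of the basic helix-loop-helix family, is known to be needed for ER bodies and for expression of PYK10, and NAI2 is a protein of the ER body itself.

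Expression of PYK10 and of plant lectin genes was examined in vip3 mutants, which lack a subunit of Paf1C, a complex that travels with elongating RNA polymerase II. The genes were chosen by their names in the platform annotation, as PYK10, any symbol made of JAL and a number, and the loci AT1G52100 (jacalin type) and AT3G16530 (legume type). This set was proposed with the signals of vip3 and wild type (WT) on these arrays already known, so that the difference between the genotypes is given for them as a description. Counts of these genes past a threshold set over the whole array are a description too, and nothing is read from them. The rule found 7 genes of the 22746 probe sets tested, each with 1 probe set, and JAL22, JAL23, JAL33 and JAL34 were the 4 JAL genes among them. Of the 7 genes numbered as JALs in the RefSeq gene table, these 4 had a probe set named for them alone. PBP1 (JAL30), JAL31 and JR1 (JAL35) had none and were not analysed here.

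The arrays were Affymetrix ATH1 GeneChips, with 2 for WT and 2 for plants homozygous for vip3-1, which the study describes as a null allele. RNA came from the whole aerial part of soil-grown seedlings aged 14 days, and per the labels each replicate pooled 3 independently derived samples of more than 100 plants. The sources used here do not give the accession of the WT plants. Values are MAS5 signals, which are brightness values on a linear scale after subtraction of background and mismatch signal. The lower quartile of signals was between 28.5 and 38.2 on the 4 arrays, and values under it have large relative errors. Log2 signals correlated across probe sets at r = 0.953 between the WT arrays and r = 0.95 between the vip3 arrays, and probe sets are not independent replicates.

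All 7 genes were lower on both vip3 arrays than on both WT arrays. The legume-type lectin gene AT3G16530 stood at 14.4% of its WT mean, the jacalin-type AT1G52100 at 6.89%, and the 4 JAL genes at 36.4% to 62.3%. PYK10 stood at 56.5%. Across all probe sets, 26.3% were lower on both vip3 arrays and 25.9% were higher on both. Since this same contrast was known when the genes were chosen, nothing further is read from the count of 7. In whole aerial tissue, fewer cells that express a gene and less RNA per cell cannot be told apart.

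**Figure D1:**
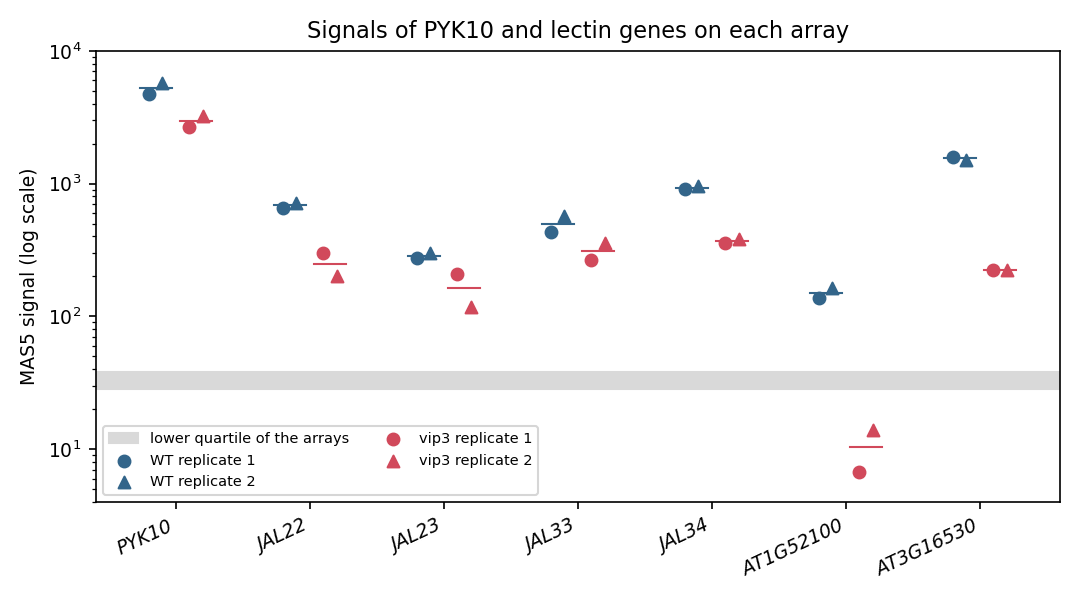
MAS5 signal on a log axis for PYK10 and the 6 lectin genes on each of the 4 arrays, with a short line at the mean of each genotype and a grey band for the lower quartile of the arrays. The vip3 points lie below the WT points for every gene, and those of AT1G52100, at 6.7 and 14, lie below the band.

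PYK10 (AT3G09260, probe set 259009_at) had signals of 4738.8 and 5739 on the WT arrays against 2687.2 and 3228.2 on the vip3 arrays. Both vip3 arrays lay below both WT arrays, and the lowest WT signal was 1.47 times the highest vip3 signal. The means were 5239 ± 707 (SD, n = 2) and 2958 ± 382.5, which gave a log2 fold change of -0.82 ± 0.12 SE. The replicates of a genotype differed by 1.21-fold in WT and 1.2-fold in vip3.

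Of the jacalin-related lectins, JAL34 (AT3G16460, probe set 259327_at) had the smallest spread between replicates. Its signals were 906.1 and 958.9 on the WT arrays against 354.9 and 382.5 on the vip3 arrays, and the log2 fold change was -1.34 ± 0.09 SE. The genotypes were well apart, with the lowest WT signal 2.37 times the highest vip3 signal, whereas replicates differed by at most 1.08-fold. JAL33 (AT3G16450, probe set 259384_at), its direct neighbour on chromosome 3, had signals of 432.5 and 567.6 on the WT arrays against 266.8 and 356.4 on the vip3 arrays. Here the separation was narrow, since the lowest WT signal was 1.21 times the highest vip3 signal and the WT replicates themselves differed by 1.31-fold. The log2 fold change of JAL33 was -0.68 ± 0.18 SE.

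JAL22 and JAL23 lie on chromosome 2 with 1 protein-coding gene between them. JAL22 (AT2G39310, probe set 266988_at) had signals of 658.8 and 713.1 on the WT arrays against 297.9 and 200.8 on the vip3 arrays, a log2 fold change of -1.49 ± 0.18 SE. JAL23 (AT2G39330, probe set 266989_at) had 273.6 and 297.5 on the WT arrays against 208.9 and 116.6 on the vip3 arrays, a log2 fold change of -0.87 ± 0.27 SE. WT replicates were close for both genes, and it was the vip3 replicates that spread, by 1.48-fold for JAL22 and 1.79-fold for JAL23. For both of these genes vip3 replicate 2 was the lower vip3 array, whereas for the other 5 genes it was the higher.

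AT1G52100 (probe set 265051_at) is a jacalin-type lectin gene without a JAL symbol. Its signals were 138 and 162.4 on the WT arrays against 6.7 and 14 on the vip3 arrays. Both vip3 signals lay below the lower quartile of their arrays, so that the size of the fold was poorly determined. The log2 fold change was -3.95 ± 0.57 SE, with a 95% interval from -5.28 to -2.62, and it was -2.67 after 16 had been added to each signal. Without the offset this was the lowest fold change of the 7 genes, and with it AT3G16530 was the lower of the pair, at -2.71. Among the 22746 probe sets, 10 had a lower fold change without the offset.

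AT3G16530 (probe set 257206_at), the legume-type lectin gene, had the closest vip3 replicates of the 7. It had signals of 1597.7 and 1497.6 on the WT arrays against 221.9 and 223.8 on the vip3 arrays. The lowest WT signal was 6.69 times the highest vip3 signal, while the vip3 replicates differed by 1.01-fold. Its log2 fold change of -2.8 ± 0.09 SE moved little with the offset.

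**Figure D2:**
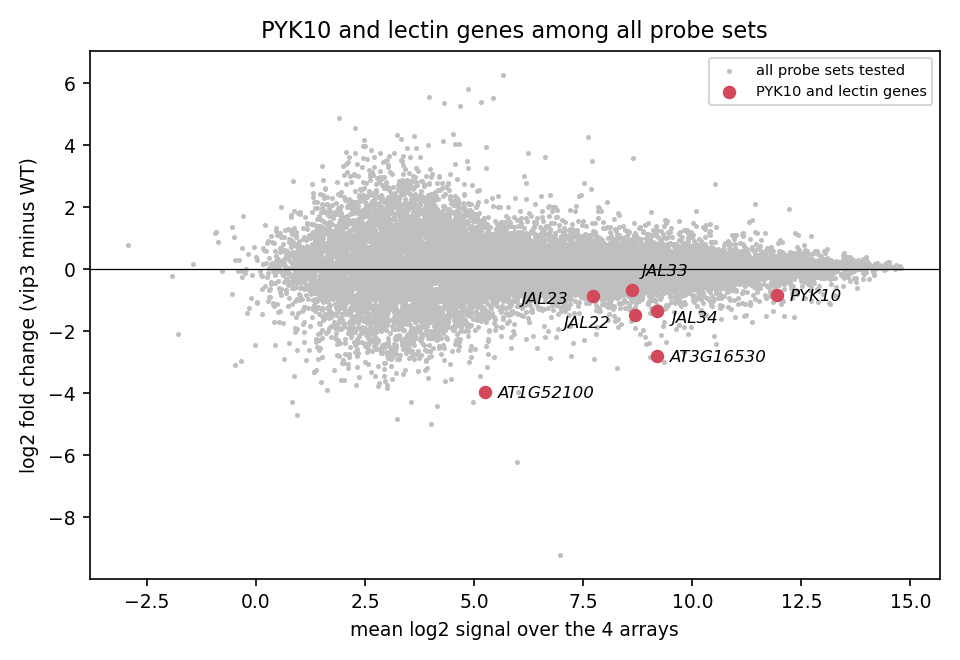
Log2 fold change (vip3 minus WT) against the mean log2 signal over the 4 arrays for all 22746 probe sets (grey), with PYK10 and the 6 lectin genes in red. AT3G16530 (-2.8) and AT1G52100 (-3.95) lie at the lower edge of the cloud, whereas JAL33 (-0.68) lies within it.

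The place of these genes in the limma fit across all probe sets followed from how they were chosen and is given as a description. An adjusted p under 0.05 with a lower level in vip3 was found for 5 of the 7 (not for JAL23 and JAL33), and for 5.07% of all probe sets. The count was 0 of the 7 when limma took the prior variance as constant and not as following the signal level. The study's thresholds, a p under 0.001 and a 2-fold change, were applied to this fit of MAS5 signals, with the p taken as unadjusted. With a lower level in vip3, they were met by 4 of the 7 and by 0.805% of all probe sets. The study's own calls rest on GCRMA values. The median log2 fold change was -1.34 for the 7 and 0.0012 for all probe sets. With 2 arrays against 2, the smallest two-sided p that an exact permutation test of 1 gene can give is 0.333.

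The size of the difference depended on single arrays to unequal degrees. The log2 fold change of AT3G16530 lay between -2.84 and -2.75 when each array was left out in turn, and that of JAL34 between -1.39 and -1.29. PYK10 was at -0.69 when WT replicate 2 or vip3 replicate 1 was removed, and at -0.96 when either of the other arrays was. JAL33 moved from -0.89 without vip3 replicate 2 to -0.48 without vip3 replicate 1. JAL22 was at -1.77 without vip3 replicate 1 and at -1.2 without vip3 replicate 2. JAL23 had the widest range of the JAL genes, from -1.29 to -0.45 without these same arrays. AT1G52100 lay between -4.48 and -3.42.

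**Figure D3:**
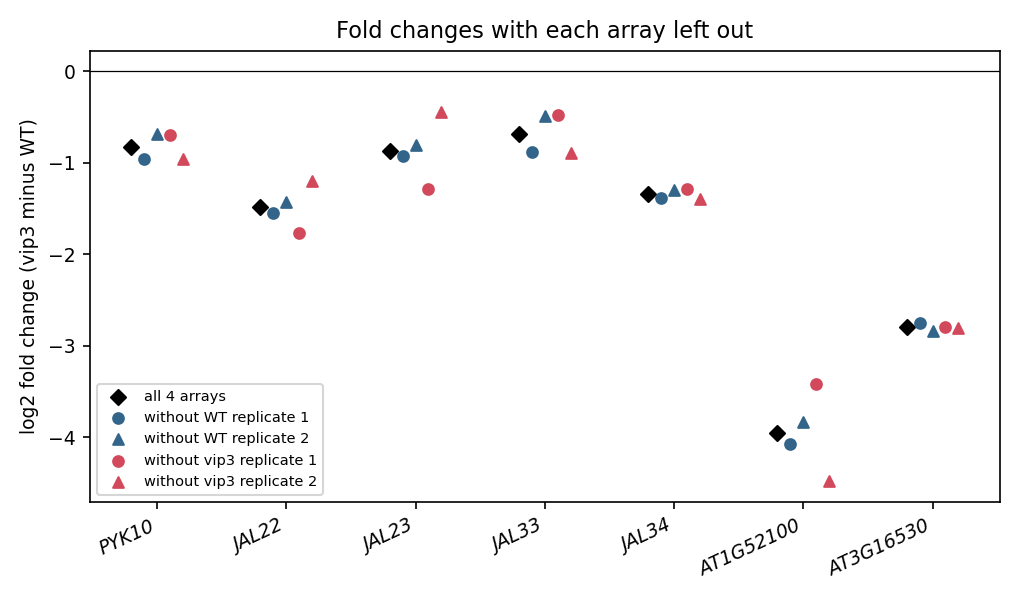
Log2 fold change (vip3 minus WT) of PYK10 and the 6 lectin genes with all 4 arrays (black) and with each array left out in turn (blue for a WT array, red for a vip3 array). Every point lies below 0; the points of AT3G16530 span -2.84 to -2.75, and those of JAL23 span -1.29 to -0.45.

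The 7 genes differed among themselves in how far they were lowered. Their profiles were compared by the mean absolute difference over the 4 arrays, after the WT mean of each gene had been subtracted from its log2 signals. PYK10 and JAL33 were closest, at 0.1, followed by JAL22 and JAL34 at 0.18. The pair farthest apart was AT1G52100 and JAL33, at 1.67. Direct neighbours did not have the closest profiles, since JAL33 and JAL34 had log2 fold changes of -0.68 and -1.34. In the RefSeq gene table JAL34 overlaps JR1, PYK10 overlaps AT3G09250 and AT3G16530 overlaps AT3G16525, and whether their probe sets also read these neighbours was not tested.

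Genes beside the 7 were examined as well, a comparison chosen after the values had been seen. Within 3 protein-coding genes on either side, 11 other genes had a probe set named for them alone. Limma called 0 of these in either direction, where 9.8% of all probe sets were called, and 1 had an unadjusted p under 0.05. AT2G39320, which lies between JAL22 and JAL23, had signals of 16.9 and 14.1 on the WT arrays against 32.2 and 49.4 on the vip3 arrays, in the lower part of the range (adjusted p = 0.249 in limma). UGT88A1, a glycosyltransferase gene near AT3G16530, read 4784.5 and 4176.5 on the WT arrays against 4738.9 and 4818.3 on the vip3 arrays (adjusted p = 0.562). For AT1G52060 and AT1G52070, both within 3 genes of AT1G52100, the genotypes overlapped at signals of 36.5 or less. Their log2 fold changes were 0.62 ± 1.05 and -0.3 ± 1.07 SE, too imprecise to set beside that of AT1G52100. AT3G09250, the gene before PYK10, was lower on both vip3 arrays, with 900.7 and 809.7 on the WT arrays against 645.5 and 734.5 on the vip3 arrays, and did not pass (adjusted p = 0.102). The dim genes AT3G09280, near PYK10, and AT2G39300, beside JAL22, were also lower on both vip3 arrays. Their log2 fold changes were -1.02 ± 0.51 and -1.36 ± 0.73 SE, at signals of 58.8 or less. AR791 and IQD26 were higher on both vip3 arrays, as was AT2G39320.

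Genes of the related lists were counted as measured only where a probe set was named for them alone in the platform annotation. No symbol was given for 8730 of the 22746 probe sets, so listed genes that were not counted may still be on the array. Of 15 listed other components and regulators of the ER body, 5 had a probe set named for them alone. Of these 1 was lower in vip3 by limma and 0 were higher, where 5.07% of all probe sets were lower and 4.73% higher. The median log2 fold change was -0.29. NAI2 fell from 715.2 and 754.4 in WT to 519.2 and 512 in vip3, a change of -0.51 ± 0.09 SE on the log2 scale (limma adjusted p = 0.0113). It was not called without WT replicate 2, vip3 replicate 1 or vip3 replicate 2, where its log2 fold changes were -0.47, -0.52 and -0.5.

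NAI1, the transcription factor gene, had signals of 109.5 and 111.9 on the WT arrays against 139.5 and 108.7 on the vip3 arrays, and the genotypes overlapped. On the log2 scale the difference was 0.15 ± 0.25 SE, with a 95% interval from -0.43 to 0.74, and limma gave an adjusted p = 0.785. ATA27, which is BGLU20, had 22.8 and 25.1 on the WT arrays against 11.7 and 1.1 on the vip3 arrays, and BGLU19 had 11 and 3.7 on the WT arrays against 4.2 and 6.5 on the vip3 arrays, so that both were read below the lower quartile of every array. AT1G54020 had 84.7 and 57.6 on the WT arrays against 117.4 and 79.3 on the vip3 arrays. None of these 4 passed in limma, with adjusted p-values between 0.234 and 0.918. BGLU21 and BGLU22, the closest relatives of PYK10, shared 1 probe set, which was not assigned to either.

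Among the other beta-glucosidases of the family, 19 of 41 were measured, and 2 were lower and 0 higher in vip3 by limma. Of all probe sets, 5.07% were called lower and 4.73% higher, which is 9.8% in either direction. Nothing is read from a count of 2 among 19 genes. The median log2 fold change of the list was -0.0003. BGLU16 fell from 925 and 944.6 in WT to 584.3 and 517.8 in vip3 (-0.77 ± 0.09 SE on the log2 scale, adjusted p = 0.00305 in limma). BGLU47 fell from 265.5 and 296.8 to 183.3 and 183.7 (-0.61 ± 0.15 SE, adjusted p = 0.0443), and it was not called with log2 of the signal plus 16 (adjusted p = 0.0629), with quantile normalization (0.0567) or when any 1 array was left out (0.115 to 0.218). BGLU44, the brightest of the list, had 6470.9 and 6587.8 on the WT arrays against 6031.8 and 5386.8 on the vip3 arrays, and did not pass (adjusted p = 0.194). BGLU45 and BGLU46, which act on glucosides of lignin precursors, were higher on both vip3 arrays but did not pass, with log2 fold changes of 0.42 ± 0.42 and 0.72 ± 0.44 SE. Across the list, 6 genes were lower and 6 higher on both vip3 arrays than on both WT arrays, and the other 7 overlapped, which is near the shares of all probe sets (26.3% lower and 25.9% higher). BGLU31, with 2.9 and 14.3 on the WT arrays against 46.5 and 56.7 on the vip3 arrays, was not called with all arrays (adjusted p = 0.0907) but was called as higher without WT replicate 2 (limma adjusted p = 0.0494).

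**Figure D4:**
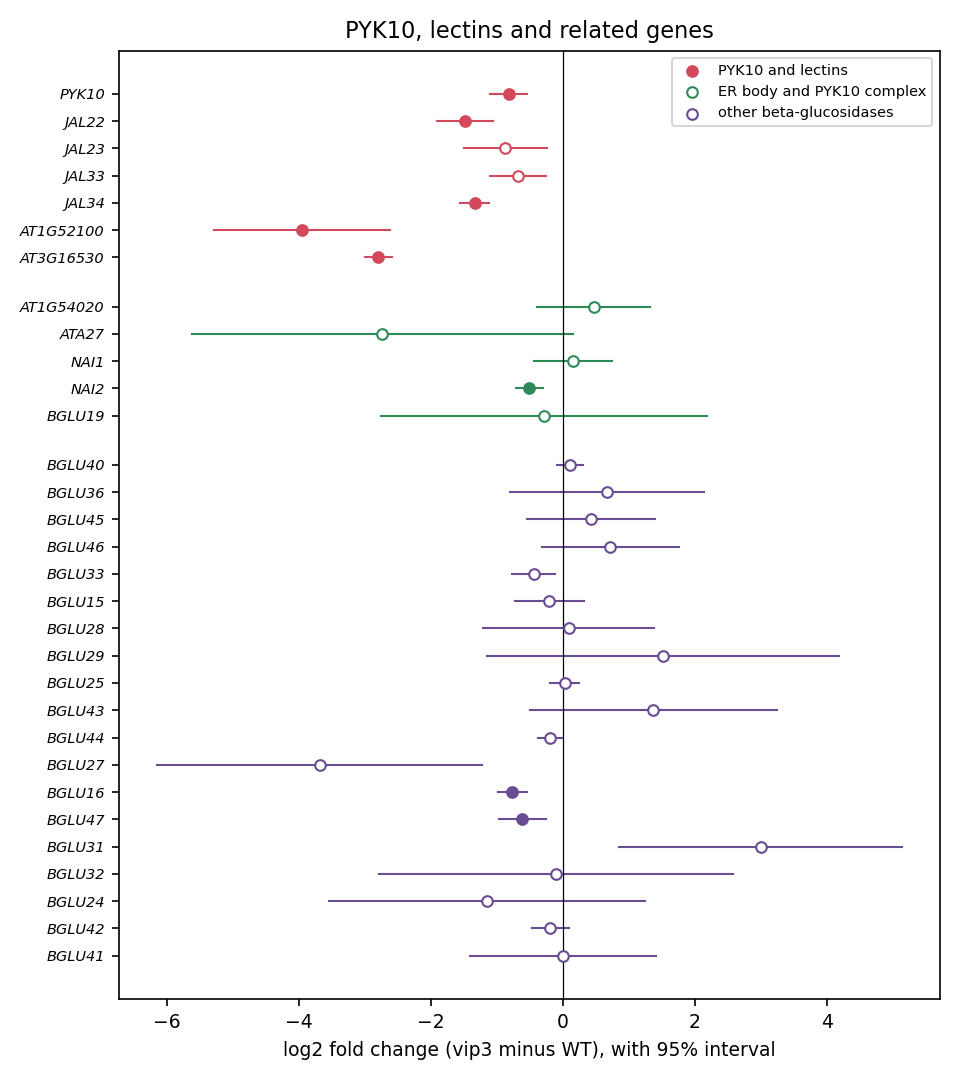
Log2 fold change (vip3 minus WT) with its 95% interval, not adjusted for the number of probe sets, for PYK10 and the lectins (red), the listed ER-body genes (green) and the other beta-glucosidases (purple). Filled points had a limma adjusted p under 0.05, which for PYK10 and the lectins is a description; the filled ER-body point is NAI2 (-0.51), and the filled beta-glucosidases are BGLU16 (-0.77) and BGLU47 (-0.61).

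Few genes of the surrounding pathways had a probe set named for them alone, and the others may be on the array without a symbol. The RefSeq symbols and synonyms were searched for lectin, jacalin or agglutinin, which misses lectin genes without such a word there. Of the other genes found in this way, 1 of 50 was measured. This was EULS3, of the Euonymus lectin type, with signals of 336.4 and 337.5 on the WT arrays against 405.4 and 394.9 on the vip3 arrays. It was higher on both vip3 arrays and did not pass (log2 fold change 0.25 ± 0.11 SE, limma adjusted p = 0.214). Of the genes for indole glucosinolate synthesis 1 of 15 was measured, UGT74B1, a glucosyltransferase of that pathway. It had 2022.4 and 1788 on the WT arrays against 2444.2 and 2059.9 on the vip3 arrays, a difference of 0.24 ± 0.1 SE on the log2 scale that did not pass (limma adjusted p = 0.209). None of the 13 listed genes for glucosinolate breakdown had a probe set of its own. Of 11 jasmonate-response genes 2 were measured. PDF1.2, a defensin gene, fell from 560.7 and 276.4 to 76.8 and 41.5 (-2.8 on the log2 scale, adjusted p = 0.00594), but was not called without vip3 replicate 1 (-3.25 on the log2 scale) or vip3 replicate 2 (-2.36). THI2.1, a thionin gene, had 86.5 and 46.3 on the WT arrays against 43.5 and 70.6 on the vip3 arrays (adjusted p = 0.869).

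Named genes with profiles most like those of PYK10 and AT3G16530 were sought among 5634 probe sets with a mean WT signal of at least 200, by the same mean absolute difference. Nearest to PYK10 were AT4G32870 at 0.036, AT4G17140 at 0.04 and AT2G24170 at 0.056. AT4G32870, for example, had signals of 287.8 and 358.9 on the WT arrays against 168.6 and 209.6 on the vip3 arrays. Nearest to AT3G16530 were COR15B at 0.055, AT1G19960 at 0.13 and AT1G31690 at 0.17. COR15B, a cold-regulated gene for a chloroplast protein, had signals of 2355.6 and 2227.1 on the WT arrays against 365.4 and 344.3 on the vip3 arrays. These distances rest on 4 arrays and on 1 probe set each, and a pair of these genes had brighter probe sets that lay farther away. AT4G17140 had 3 probe sets, with log2 fold changes of -0.98, -0.82 (the nearest) and -0.64 from the brightest to the dimmest. AT1G31690 had 2, at -2.4 for the brighter and -2.91 for the nearest.

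The tissue labels were compared with marker genes because PYK10 is strongly expressed in roots. Of 13 root markers 2 were measured, EXPA7 and EXPA18, both of which encode expansins of root hairs. Their summed signals were 129.1 and 49.3 on the WT arrays against 53.9 and 98.9 on the vip3 arrays, and the genotypes overlapped for both genes. EXPA18 alone read 71.6 and 9.1 on the WT arrays, the second of which lay below the lower quartile of its array. Of 7 leaf markers 4 were measured, and their summed signals were between 75430 and 79120 in WT and between 75170 and 82660 in vip3. The single flower and seed marker of 8 that was measured, AT5G07230, had 16.3 and 4.9 on the WT arrays against 39.6 and 22.6 on the vip3 arrays. It was thus higher on both vip3 arrays (log2 fold change 1.74 ± 0.88 SE), but all its signals except 39.6 lay below the lower quartile of their arrays. Markers this dim say little about the tissue. None of these 7 markers was called by limma, and none was listed at 0. Their part in the differences of PYK10 and the lectins was not tested.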

How the data were processed

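The authors hybridised RNA to ATH1 arrays and deposited MAS5 signal intensities on a linear scale, scaled per array. The software's version and the genome build are not given in the sources used here. GCRMA values, behind the study's own calls, and detection calls were not analysed here. Of 22810 probe sets, 64 controls were left out. The log2 of each signal, with no offset, was fitted for the difference vip3 minus WT with limma 3.58.1 in R 4.3.3, with a prior variance that followed the mean signal and Benjamini-Hochberg adjustment over all 22746 probe sets. The thresholds were an adjusted p of 0.05 and, from the study's methods, a p of 0.001 with a fold of 2. The script was tested on simulated data. For arrays, their number limits the precision, and with pools as replicates p-values measure only the spread between these pools.

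Names came from the platform annotation, and gene identifiers linked them to current symbols in the RefSeq table of TAIR10.1: 13513 probe sets had 1 symbol, 503 several and 8730 none. That table also gave gene order and the overlaps between neighbours, both taken from its start and end positions, and no sequences were used. For other lectins its symbols and synonyms were searched. Where a listed locus had several probe sets, that with the highest mean was taken. The text names every gene of the set, every measured ER-body gene, up to 4 called genes per related list, and the 3 nearest profiles to PYK10 and AT3G16530. Further list, marker and neighbouring genes were named after their values were seen. Genes and lists were chosen with earlier results of these data known. The alternatives were a constant prior variance, robust eBayes, an offset of 16, quantile normalization, removal of the 40% dimmest probe sets or of those with shared probes, the replicate block, the study's thresholds and removal of each array. Deviations of same-numbered arrays correlated at -0.044, and the arrays were therefore treated as unpaired.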

Additional observations from a re-analysis of the deposited data

How the results depend on the processing

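The counts depended on how limma modelled the variance. A constant prior variance left 0 of the 7 genes, 0 of the ER-body list, 0 of the other beta-glucosidases, 0 of the jasmonate list and 0 of all 22746 probe sets called, although 5 of the 7 genes and 3798 of all probe sets had an unadjusted p under 0.05. The 7 genes were chosen with this contrast known, so their counts are a description and no sign of stability: under the other settings they were between 4 and 6, against 5, with a median log2 fold change between -1.38 and -1.1. With the replicate block the count was 6. Without the 40% dimmest probe sets the count was 5 of 6, since AT1G52100 was itself among those removed. The study's thresholds gave 354 probe sets, 0 ER-body genes and 0 other beta-glucosidases, and that last count was 1 with log2 of the signal plus 16 and with quantile normalization, against 2. Removal of single arrays, where a lone array is assumed to vary like the others, gave 442 to 1332 probe sets, against 2229. It gave 4 to 6 of the 7 genes, 0 to 1 ER-body genes, 1 to 2 other beta-glucosidases (BGLU16 each time, and BGLU31 as higher without WT replicate 2) and 0 to 1 jasmonate genes. Log2 fold changes turned sign for genes that did not pass: NAI1 was at -0.026 without vip3 replicate 1 and at 0.33 without vip3 replicate 2, and BGLU19 at 0.498 without WT replicate 1 and 0.027 without vip3 replicate 1. For the constant prior variance, the cause of the lost calls was not tested. The replicate block ended the call of BGLU47 (adjusted p = 0.0509). Signals near the bottom of the range, as for AT1G52100, ATA27 and BGLU19, limit what can be said of a fold change.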
